A study of Mus musculus with 8 samples.

Results

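The comparison of the small RNA libraries of mature and immature B cells covered the mouse miRNAs with 50 or more sequenced tags over both libraries, 260 of the 671 mouse miRNAs listed. The members were chosen from the total of both libraries, and a level is given as tags per 1000000 of the mouse miRNA tags of that library (CPM). The study followed B cell development in the bone marrow of female C57BL/6 mice aged 8 to 10 weeks. Live cells were sorted as pro-B (B220+IgM-CD43+), pre-B (B220+IgM-CD43-), immature B (B220+IgM+CD43-) and mature B cells (B220hi IgM+ CD43-), and each stage gave 1 small RNA library and 1 rRNA-depleted RNA library from the pooled cells of 3 mice. The gates of the immature and mature populations thus differed in the brightness of B220 alone. With 1 library per stage, no difference has a replicate among these libraries, none was tested here, and the ratios describe these libraries. The qPCR that the study ran on other animals was not analysed here.

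A miRNA is cut from an RNA hairpin and loaded as a single strand into an Argonaute protein, which it guides to messenger RNAs that pair with its seed, the bases 2 to 8 from its 5′ end. miRNAs with 1 seed therefore share most of their targets, whatever gene encodes them. Immature B cells are the first to carry a complete IgM receptor and are screened for self-reactivity, and mature B cells in the marrow are recirculating cells that have passed through the spleen. In this lineage miR-150 is known as a miRNA of resting mature lymphocytes that restrains the transcription factor Myb, the miR-17-92 cluster supports the survival of progenitors by lowering the death factor Bim, and the miR-181 family is abundant in precursors of B and T cells.

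Sequences behind many of the differences are shown in groups of a common seed. They are given 5′ to 3′ with bases 2 to 8 in capitals, from RefSeq on build GRCm38.p6, where 219 of the 260 members had an entry and all 219 were identical to the sequence deposited. The miR-181 family, which stood lower in mature cells, has 1 seed on its 5p strands and 2 others on its 3p strands, where miR-181a-2-3p differs at 1 base of the seed.
miR-181a-5p: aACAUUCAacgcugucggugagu
miR-181b-5p: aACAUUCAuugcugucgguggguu
miR-181c-5p: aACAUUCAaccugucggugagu
miR-181d-5p: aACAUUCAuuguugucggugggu
miR-181a-1-3p: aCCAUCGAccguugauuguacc
miR-181c-3p: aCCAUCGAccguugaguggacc
miR-181a-2-3p: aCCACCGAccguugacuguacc

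The paralogous clusters miR-17-92 at chr14:115043684-115044459, miR-106b-25 at chr5:138165332-138165807 and miR-106a-363 at chrX:52741697-52742563 each encode miRNAs of the seed AAAGUGC, and the first and last also encode miR-18, whose seed differs from it at 1 base. The positions span the members with a single position in RefSeq, and miR-19b-3p and miR-92a-3p lie in both the first and the last cluster. The strands below are shown because, apart from miR-106b-5p, these strands were 2-fold or more lower in mature cells.
miR-17-5p: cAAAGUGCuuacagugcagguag
miR-20a-5p: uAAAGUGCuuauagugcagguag
miR-93-5p: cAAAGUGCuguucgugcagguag
miR-106b-5p: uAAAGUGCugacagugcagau
miR-20b-5p: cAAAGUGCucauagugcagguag
miR-106a-5p: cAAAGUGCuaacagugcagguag
miR-18a-5p: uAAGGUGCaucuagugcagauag
miR-18b-5p: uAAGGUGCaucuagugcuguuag

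The same clusters also encode miRNAs of another seed, whose most abundant member did not pass a 2-fold difference.
miR-92a-3p: uAUUGCACuugucccggccug
miR-25-3p: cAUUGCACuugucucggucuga
miR-363-3p: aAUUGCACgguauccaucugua

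The next seed is shown because its members lay on both sides. Of the following, both miR-125 strands stood higher in mature cells and miR-351-5p, encoded at chrX:53053315-53053338, stood lower.
miR-125a-5p: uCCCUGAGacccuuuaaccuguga
miR-125b-5p: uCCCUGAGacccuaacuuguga
miR-351-5p: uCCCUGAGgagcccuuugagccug

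Among the members that stood higher in mature cells, the miR-29 strands and the miR-99/miR-100 strands each share a seed. miR-215-5p, which had the largest ratio of the members with a tag in both libraries, has the seed of the abundant miR-192-5p. miR-150-3p, the less abundant strand of the miR-150 hairpin, is shown on its own and lies at chr7:45121798-45121819.
miR-29a-3p: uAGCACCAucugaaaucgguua
miR-29b-3p: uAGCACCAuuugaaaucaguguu
miR-99a-5p: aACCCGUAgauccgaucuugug
miR-99b-5p: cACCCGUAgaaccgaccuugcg
miR-100-5p: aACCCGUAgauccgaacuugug
miR-192-5p: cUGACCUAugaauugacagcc
miR-215-5p: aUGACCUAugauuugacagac
miR-150-3p: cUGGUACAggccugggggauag

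The labels of both stages were checked against messenger RNAs in the rRNA-depleted libraries, in fragments per kilobase of transcript per 1000000 (FPKM). These libraries held 223495 estimated counts in immature and 849350 in mature cells, so that a 0 in the immature library rests on fewer counts. The 3 markers of mature B cells used stood higher in the mature library. Ighd, the constant region of IgD, was at 2.53 FPKM in immature and 171 in mature cells, and Cr2, the complement receptor CD21, at 2.01 and 9.84. Fcer2a, which encodes CD23 of follicular B cells, was listed at 0 in the pro-B, pre-B and immature libraries and at 37.7 in the mature one. Of the 4 markers of immature cells, Vpreb3, a chaperone of the early receptor, was at 31.0 FPKM in immature and 1.78 in mature cells, and the recombinase gene Rag2 was at 1.38 and 0.22. Rag1 was listed at 0 in the immature library and 0.03 in the mature one, and Cd93, a receptor of early B cells, went against its label at 0.6 and 1.36 FPKM.

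Markers of other cells were also present. The 5 myeloid messenger RNAs summed to 49.0 FPKM in immature and 151 in mature cells, against 206 in pro-B and 65.0 in pre-B cells. The neutrophil gene S100a8 was at 29.0 FPKM in immature and 49.4 in mature cells, and S100a9 at 7.43 and 49.4. The 4 erythroid messenger RNAs summed to 14.4 and 26.1 FPKM, mostly the globin gene Hba-a2 at 12.5 and 20.6, with Hba-a1 at 0 in both libraries. The 4 plasma cell genes summed to 6.77 and 13.8 FPKM, led by Xbp1, and the 3 stromal genes to 0.32 and 1.83, led by Col1a1, with Col3a1 and Cxcl12 at 0 in the immature library. Of the 4 T and NK cell genes, Cd3g and Klrd1 were at 0 in both libraries and the sum was 0 and 0.68 FPKM. The sum of each of these 5 lists was higher in the mature library, though Jchain of the plasma list, at 1.09 and 0.81 FPKM, and Alas2 of the erythroid list, at 1.34 and 0.8, were lower. The T and NK sum rests on 3 estimated counts against 0 in a library of lower depth. The part of such cells in the miRNA differences was not tested. In bulk samples, fewer cells of a type and less RNA per cell cannot be told apart.

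The immature library held 2106537 mouse miRNA tags and the mature one 1060387, so that a miRNA without a tag could have stood at up to 1.42 and 2.83 CPM, the level of 3 tags. The pro-B and pre-B libraries held 768752 and 1444396. The members took 99.9% of the mouse miRNA tags in immature and 99.8% in mature cells. Of them, 70 were 2-fold or more higher in mature cells, 26.9% of the members, and 65 were 2-fold or more lower, 25%. The remaining 125 lay within 2-fold. The median log2 ratio of mature over immature was 0.05 and turned negative with TMM factors, DESeq2's factors and the authors' TPM, with quartiles at -0.98 and 1.07. The 95% exact (Clopper-Pearson) interval of the ratio, which covers counting error only, lay wholly past 2-fold for 54 of the higher and 53 of the lower members, and it held 1 for 35 of all members. Among the 122 members with 500 or more tags, 28 were higher and 29 lower.

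**Figure D1:**
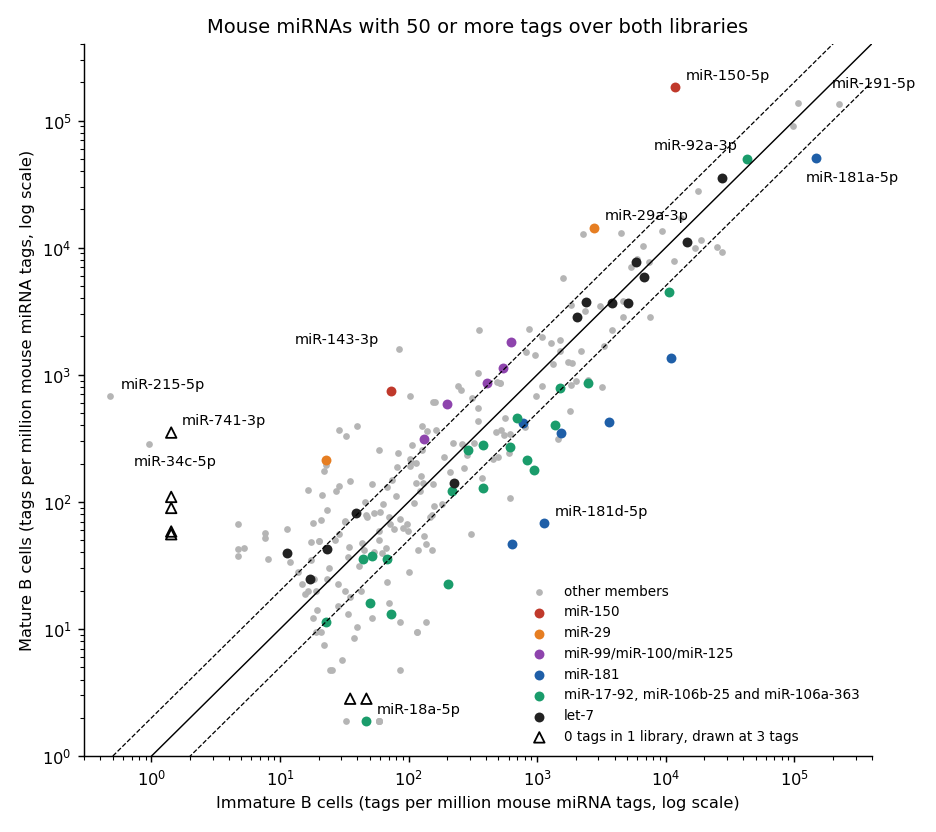
Each point is 1 of the 260 members, with its level in immature (x axis) and mature (y axis) B cells in tags per 1000000 mouse miRNA tags, both on log scales. The solid line marks equal levels and the dashed lines 2-fold differences, colours mark families, and triangles mark the 7 members with no tag in 1 library, drawn at 3 tags. miR-150-5p stands far above the lines at the abundant end, and the miR-181 family lies below the solid line.

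The neighbouring steps of the pathway had fewer differences past 2-fold, measured in the same way with their own 50-tag minimum. From pre-B to immature cells, 16 of 265 miRNAs were 2-fold or more higher (6.04%) and 40 lower (15.1%). From pro-B to pre-B cells, 17 of 291 were higher (5.84%) and 111 lower (38.1%). The median log2 ratio was -0.15 from pre-B to immature cells and -0.71 from pro-B to pre-B cells. No other scaling was tried for these steps, so their counts may depend on it. Neighbouring steps share a library, so their values are set side by side only. The median absolute log2 ratio was 1.05 between immature and mature cells, 0.42 between pre-B and immature cells and 0.88 between pro-B and pre-B cells.

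Scaling decided some of the calls. edgeR's TMM factors moved the log2 ratios by -0.15, DESeq2's size factors by -0.29, and a total without miR-150-5p by 0.27. With DESeq2's factors 57 members were higher and 82 lower, so that 41.0% of those past 2-fold were higher, against 51.9% with the mouse miRNA total. Under every scaling tried, 57 members were higher and 54 lower by 2-fold or more. In all, 24 members lost a 2-fold call under at least 1 scaling and 34 gained one. In the families and cell type lists described below, the call was lost for miR-25-3p, miR-99a-5p, miR-23b-3p, miR-100-5p, miR-199a-5p, miR-93-3p, miR-99b-5p, miR-322-3p, miR-200c-3p, miR-126a-5p, miR-101b-3p, miR-221-5p, let-7i-3p, miR-26b-3p, miR-30d-3p, miR-18b-3p and miR-467c-5p. It was gained for miR-191-5p, miR-122-5p, miR-10a-5p, miR-19b-3p, miR-26b-5p, miR-486a-5p, miR-486b-5p, miR-222-3p, miR-181c-5p, miR-106b-5p, miR-191-3p, miR-144-3p, miR-27a-5p, miR-152-3p, let-7e-5p, miR-92a-1-5p and miR-23b-5p.

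A few abundant miRNAs carried most of the exchange of tags. The 5 most abundant made up 61.9% of the mouse miRNA tags in immature and 59.4% in mature cells. miR-191-5p, a ubiquitous miRNA encoded beside miR-425, was the first of the immature library at 223392 CPM and stood at 133976 in mature cells, 1.67-fold lower. miR-150-5p took its place in the mature library with 18.2% of the tags. Summed over the members that gained, 306293 CPM were added in mature cells, and miR-150-5p alone gave 55.6% of them. The next were miR-142a-5p, a miRNA of all blood cells, with 9.88%, and miR-29a-3p with 3.80%. Of the 306935 CPM lost by other members, miR-181a-5p gave 32.1% and miR-191-5p 29.1%. As levels are shares of a total, a gain of 1 abundant miRNA lowers the share of every other.

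**Figure D2:**
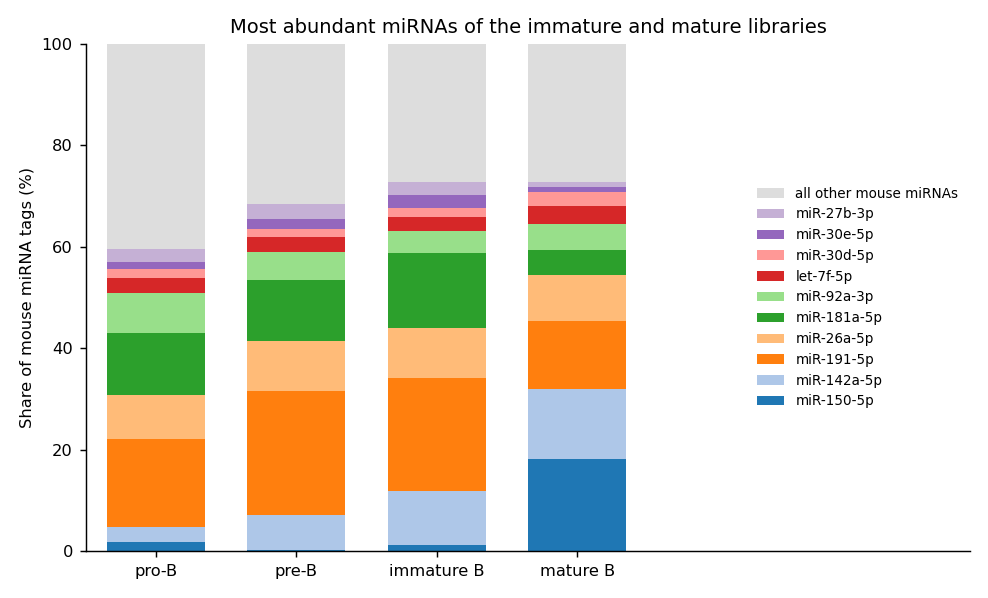
Bars give the share of the mouse miRNA tags of each library (%) taken by the miRNAs that were among the 8 most abundant in immature or mature B cells, with all other miRNAs in grey. miR-150-5p grows from 1.19% in immature to 18.2% in mature cells, and miR-181a-5p shrinks from 14.9% to 5.04%.

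miR-150-5p had the largest difference of the members above 10000 CPM in either library. miR-150-5p was at 18036 CPM in pro-B, 2258 in pre-B, 11892 in immature and 182070 in mature cells. Its 25050 tags in immature and 193065 in mature cells gave a 15.3-fold higher level (95% interval 15.1 to 15.5). The mature level was the highest of the 4 libraries and the pre-B level the lowest. The strand from the other side of the hairpin, miR-150-3p, had the same order at under 2% of the level, with 269 CPM in pro-B, 22.2 in pre-B, 73.6 in immature and 746 in mature cells, and was 10.1-fold higher in mature cells.

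The miR-29 family, which targets DNA methyltransferases and collagens, followed with both of its members. miR-29a-3p was at 3940.2 CPM in pro-B, 1932 in pre-B, 2749.5 in immature and 14398 in mature cells, a 5.24-fold difference between the last 2 (95% interval 5.08 to 5.40). miR-29b-3p, of the same seed, was lower in level but 9.35-fold higher in mature cells, at 22.8 and 213 CPM. miR-29c-3p fell just under the tag minimum, with 15 tags in immature and 34 in mature cells. For both members the mature library was the highest of the 4.

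Other abundant members were also higher in mature cells. miR-342-3p, from an intron of the gene Evl, was at 4356 CPM in pro-B, 4184 in pre-B, 4502 in immature and 13099.9 in mature cells, 2.91-fold higher in mature than in immature cells. miR-378a-3p, from an intron of the metabolic coactivator gene Ppargc1b, was at 1598 and 5735 CPM. miR-146b-5p, of a family that dampens signalling from Toll-like receptors, was 2.67-fold higher, at 858 and 2294 CPM, and the more abundant miR-146a-5p with the same seed stood at 13137 and 17046, within 2-fold. miR-101a-3p, which targets the histone methyltransferase Ezh2, was 6.62-fold higher at 103 and 682 CPM. miR-151-5p, from an intron of the focal adhesion kinase gene, was 6.35-fold higher at 354 and 2247, and its 3p strand moved with it, from 58.4 to 256 CPM. The less known miR-5099 and miR-3535, with 500 or more tags, were 5.60-fold and 3.89-fold higher. miR-5099 had been more abundant still in pro-B cells, at 16624 CPM, against 2295 in immature and 12858 in mature cells. So had miR-146b-5p at 3175 CPM in pro-B cells, miR-151-3p at 265, and miR-3535 at 686 against 156 in immature and 608 in mature cells.

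Of the 70 members that were higher in mature than in immature cells, 38 had their highest level of the 4 libraries in mature cells and 30 in pro-B cells. The largest ratios belonged to the second kind. miR-215-5p, known from intestine, liver and kidney, was at 3291 CPM in pro-B, 1.38 in pre-B, 0.475 in immature and 677 in mature cells, with 1 tag in immature and 718 in mature cells, a ratio of 1426 with a 95% interval from 255 to 56416. miR-34c-5p, best known from ciliated and male germ cells, was at 1293 CPM in pro-B, 11.8 in pre-B, 0.949 in immature and 283 in mature cells, and its ratio of 298 rested on 2 tags in immature cells (95% interval 81.8 to 2472). Both were thus lowest in the middle stages and highest at either end. Whether their tags came from B cells was not tested.

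A further 5 members lie in a cluster on the X chromosome that is known for expression in testis. None had a tag in the immature library, so their ratios are lower bounds. They cannot be ranked against those of miR-215-5p and miR-34c-5p. miR-741-3p had 1159 tags in pro-B cells, none in pre-B or immature cells and 372 in mature cells, so that it was at least 246-fold higher in mature than in immature cells against a floor of 3 tags. miR-871-3p was at least 76.8-fold, miR-470-5p at least 62.9-fold, miR-743b-3p at least 41.1-fold and miR-880-3p at least 39.1-fold higher, each with 0 tags in the immature library. A list of the miRNAs of this cluster, drawn up after the values were seen, held 21 listed miRNAs, which summed to 3326 tags in pro-B, 4 in pre-B, 3 in immature and 960 in mature cells (876 with each sequence counted once). In the immature library 20 of them had no tag. The source of the tags of this cluster in the pro-B and mature libraries was not tested. All 5 members have a single position in RefSeq, 4 of them within chrX:66796809-66814017 and miR-743b-3p at chrX:66777266-66777287, and no 2 of the 5 share a seed.
miR-741-3p: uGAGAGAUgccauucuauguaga
miR-871-3p: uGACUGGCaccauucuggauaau
miR-470-5p: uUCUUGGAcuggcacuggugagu
miR-743b-3p: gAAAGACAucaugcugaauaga
miR-880-3p: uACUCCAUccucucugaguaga

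Some of the lists of other cell types also stood higher in mature cells. The marker lists of the small RNA are given in the same way. All 5 stromal members were 2-fold or more higher in mature cells (4 to 5 over the other scalings), and the 9 listed stromal miRNAs summed to 7850.4 CPM in pro-B, 6340.4 in pre-B, 280.1 in immature and 2098 in mature cells. In the immature library 1 of them had no tag and in the mature one 1. The 5 members held 4 distinct sequences, as miR-199a-3p and miR-199b-3p have the same sequence. Counting each sequence once, the stromal sum was 260 CPM in immature and 2049 in mature cells. Most of the mature sum was miR-143-3p of smooth muscle and fibroblasts, at 84.5 CPM in immature and 1597 in mature cells, 18.9-fold higher (95% interval 16.2 to 22.2). Of the 5 epithelial members, 3 were higher (2 to 3 over the other scalings), and the 10 listed summed to 1103, 861, 432 and 1178 CPM in the same order, with 1 and 0 of them at 0 in the last 2. Their most abundant was miR-200c-3p at 164 and 369.7 CPM, and miR-200a-3p had the largest ratio, 10.1-fold. The liver miRNA miR-122-5p, at 11954 CPM in pro-B, 15915 in pre-B, 1091 in immature and 1972 in mature cells, lay within 2-fold between the last 2 but far below the early stages.

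The lists of other blood lineages were mixed. The 7 erythroid miRNAs summed to 1129.8 CPM in immature and 2026 in mature cells, against 3727 in pro-B and 1881 in pre-B cells, and 2 of 5 members were higher (2 to 5 over the other scalings). The most abundant, miR-486a-5p, lay within 2-fold at 515 and 869 CPM, and miR-486b-5p has the same sequence and nearly the same tags. With each sequence counted once, the sum was 619 CPM in immature and 1160.0 in mature cells. The 2 higher members were miR-486a-3p, 2.65-fold, and miR-451a, 3.76-fold. The neutrophil and monocyte miRNA miR-223-3p was at 122 and 122 CPM, level where the myeloid messenger RNAs were not, and its log2 ratio of -0.01 changed sign when miR-150-5p was left out of the total. miR-126a-3p of endothelium and stem cells was at 131 and 141 CPM, and the sign of its ratio turned with TMM and DESeq2's factors, while miR-126a-5p was 2.16-fold higher at 32.3 and 69.8. No defining member of the liver, muscle and nerve list other than miR-122-5p reached the tag minimum. The part of any such cells in the mature library was not tested, and without the lists of other cells and the X-linked cluster, a choice made after the values were seen, 54 of 236 members were higher and 65 lower.

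The miR-99/miR-100/miR-125 family of blood stem and progenitor cells also fell in sum through the early stages and stood higher again in mature cells. All 5 members were 2-fold or more higher than in immature cells (2 to 5 over the other scalings), with a median log2 ratio of 1.24 beside 0.05 for all members. miR-125b-5p, which lowers the p53 pathway, was at 10488 CPM in pro-B, 3916 in pre-B, 621 in immature and 1823 in mature cells. The 9 listed strands summed to 25367 CPM in pro-B, 10431 in pre-B, 1902 in immature and 4709 in mature cells. Mature cells thus stood above immature cells and far below pro-B cells. miR-100-5p departed from the early fall of the sum, at 1388 CPM in pro-B and 2293 in pre-B cells. The Hox-encoded miR-10b-5p had the same shape, at 1074, 95.5, 39.9 and 396 CPM in that order, while its paralogue miR-10a-5p was at 1851 and 3526 CPM in the last 2, 1.91-fold higher.

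**Figure D3:**
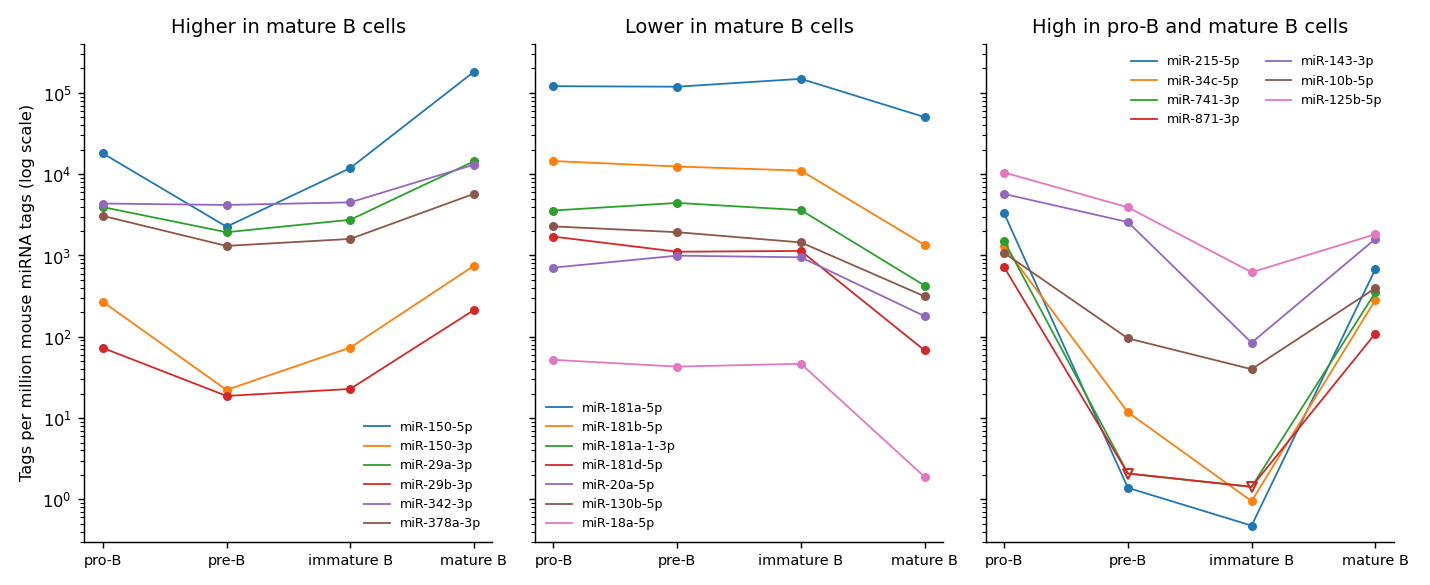
Levels of selected miRNAs in the 4 small RNA libraries, in tags per 1000000 mouse miRNA tags on a log scale, with 1 library per stage. Open triangles mark libraries with no tag, drawn at 3 tags. The left panel rises at the last step, the middle panel is nearly level up to immature cells and falls at the last step, and the right panel is high at either end.

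On the lower side, the miR-181 family lost the most CPM in sum of the lists examined. Of its 7 members, 6 were 2-fold or more lower in mature cells (6 to 7 over the other scalings), and the median log2 ratio was -3.04, beside 0.05 for all members. The most abundant, miR-181a-5p, which tunes antigen receptor signalling in lymphocyte precursors, was at 121001 CPM in pro-B, 119268 in pre-B, 149011 in immature and 50402 in mature cells, 2.96-fold lower in mature than in immature cells (95% interval 2.93 to 2.98). miR-181b-5p was at 14510.5 CPM in pro-B, 12431 in pre-B, 11061 in immature and 1348 in mature cells and fell further, 8.21-fold. miR-181d-5p had the largest ratio, 16.7-fold, at 1137 and 67.9 CPM. In every library miR-181a-5p was the most abundant strand of the family, and each of the 7 members lay within 2-fold across the pro-B, pre-B and immature libraries.

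The strands from the other side of these hairpins were also lower. miR-181a-1-3p, encoded at chr1:137966508-137966529, was at 3575 CPM in pro-B, 4434 in pre-B, 3613 in immature and 426 in mature cells, which was 8.48-fold lower in mature than in immature cells (95% interval 7.71 to 9.34). Its counterpart from the second miR-181a gene, miR-181a-2-3p, was at 1539 and 349.9 CPM, 4.40-fold lower. The 3p strands can be told apart by gene, while miR-181a-5p and miR-181b-5p each come from a copy on chromosome 1 and a copy on chromosome 2. miR-181c-5p alone stayed within 2-fold, at 779 and 417 CPM, though with TMM and DESeq2's factors it too passed 2-fold. Its 3p strand, miR-181c-3p, was 13.9-fold lower, at 641 and 46.2 CPM.

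The 3 paralogous clusters around miR-17 differed among themselves. miR-19b-3p and miR-92a-3p, encoded in 2 of them, are counted with miR-17-92, and both lay within 2-fold. In the miR-106a-363 cluster the 6 other members were lower by 2-fold or more (5 to 6 over the other scalings), with a median log2 ratio of -2.13. In the miR-106b-25 cluster, from an intron of the replication gene Mcm7, 3 of 6 were lower (1 to 4) and the median was -1.02. In miR-17-92 itself, 4 of 10 were lower (4 to 6) and the median was -0.94. No member of the 3 clusters was 2-fold or more higher.

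Within miR-17-92 the strands of 1 transcript had very different ratios. miR-20a-5p was at 709 CPM in pro-B, 995 in pre-B, 949 in immature and 179 in mature cells, 5.30-fold lower in mature than in immature cells, and miR-17-5p was 3.88-fold lower at 830.3 and 214 CPM. miR-18a-5p had 98 tags in immature and 2 in mature cells, a 24.7-fold difference with a 95% interval of 6.65 to 207. By contrast miR-92a-3p, the most abundant strand of the cluster, was at 78960.4 CPM in pro-B, 55407 in pre-B, 43237 in immature and 50066 in mature cells and differed between the last 2 by a log2 ratio of 0.21, whose sign turned with DESeq2's factors. miR-92a-3p is also encoded by the miR-106a-363 cluster, with the same sequence.

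The other clusters filled in the picture. miR-93-5p was the lowest of the miR-106b-25 cluster, 2.90-fold lower at 2483 and 855 CPM. miR-25-3p, its most abundant, was 2.38-fold lower at 10619.8 and 4457, a call lost with the total without miR-150-5p. miR-106b-5p, miR-106b-3p and miR-25-5p lay within 2-fold, with log2 ratios of -0.86, -0.61 and -0.43. From the X-linked cluster, miR-363-3p was at 1384 and 403 CPM, 3.44-fold lower, miR-20b-5p was 8.91-fold lower, and miR-18b-5p had 99 tags in immature and none in mature cells, at least 16.6-fold lower.

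The miR-130/miR-301 family fell with all 4 members under each scaling. miR-130b-5p was at 2278 CPM in pro-B, 1934 in pre-B, 1448 in immature and 314 in mature cells, 4.61-fold lower in mature than in immature cells (95% interval 4.12 to 5.18). The strand with the family's seed, miR-130b-3p, was 3.56-fold lower, and miR-301a-3p, with the same seed, fell from 182 to 5 tags, 18.3-fold. The miR-148/miR-152 family, which targets DNA methyltransferase 1 and in B cells restrains tolerance genes, was split. miR-148a-3p was at 5058 CPM in pro-B, 3046 in pre-B, 3198 in immature and 794 in mature cells, 4.03-fold lower, and the 5p strands of miR-148a and miR-148b were 3.80-fold and 4.42-fold lower. miR-148b-3p and miR-152-3p, with the seed of miR-148a-3p, had log2 ratios of -0.51 and 0.91.

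The miR-15/miR-16 family, which lowers Bcl2 and cyclins, had 4 of 7 members lower (3 to 4 over the other scalings) and a median log2 ratio of -1.07. These include 3p strands of other seeds. Of the 4 strands of seed AGCAGCA, 3 were lower, and their median log2 ratio was -1.34. miR-16-5p, the most abundant of the family, was at 11709 and 7915 CPM, within 2-fold, while miR-15b-5p with the same seed was 2.66-fold lower at 7503 and 2825. miR-322-5p had the largest ratio, 3.64-fold, and belongs to an X-linked cluster with miR-351, miR-450, miR-503 and miR-542. Of the 9 members of that cluster with a single RefSeq position, at chrX:53048008-53054327, 7 were lower and 2 within 2-fold. The grouping by position used a gap of at most 10000 bases and was drawn without the ratios.

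Further abundant members on the lower side were miR-27b-3p, a brake on lipid genes, at 24696 CPM in pro-B, 29819 in pre-B, 27259 in immature and 9267 in mature cells, and miR-30e-5p at 25156 and 10139.7 CPM in the last 2. They were 2.94-fold and 2.48-fold lower. miR-27a-3p, which differs from miR-27b-3p outside the seed and is encoded in another cluster, was at 1494 and 1537 CPM, a ratio whose sign turned with the same 3 scalings as the overall median. Of the 9 members of the miR-23/miR-27/miR-24 clusters, 3 were lower (2 to 4 over the other scalings), a share near that of all members. Among members with 500 or more tags, miR-421-3p was 5.76-fold lower at 619 and 108 CPM, and miR-298-5p 5.49-fold lower at 305 and 55.6. Of the 65 lower members, 64 had their lowest level of the 4 libraries in mature cells, and their highest was in pro-B cells for 28, pre-B cells for 22 and immature cells for 15.

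The 5 rows with the lowest ratios among members with a tag in both libraries belonged to the Sfmbt2 cluster. This cluster lies in an intron of Sfmbt2, a Polycomb gene on chromosome 2. Its 9 members were lower by 2-fold or more (8 to 9 over the other scalings), and the 34 listed miRNAs of the cluster summed to 728 CPM in immature and 84.9 in mature cells, or 518 and 75.4 with each sequence counted once. These values are not independent. miR-466b-3p, miR-466c-3p and miR-466p-3p have 1 sequence, miR-466a-3p and miR-466e-3p have that sequence with 1 more base, and all 5 were listed with 125 tags in immature and 2 in mature cells, a 31.5-fold difference with a 95% interval of 8.53 to 263. miR-467a-5p and miR-467b-5p, whose sequences overlap, were both listed with 247 and 10 tags, and the cluster held 6 distinct sequences among its members. Of the imprinted Dlk1-Dio3 cluster, 1 of 24 listed miRNAs reached the tag minimum. This was miR-127-3p, at 762 CPM in pro-B, 69.2 in pre-B, 29.0 in immature and 368 in mature cells, 12.7-fold higher in mature than in immature cells.

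**Figure D4:**
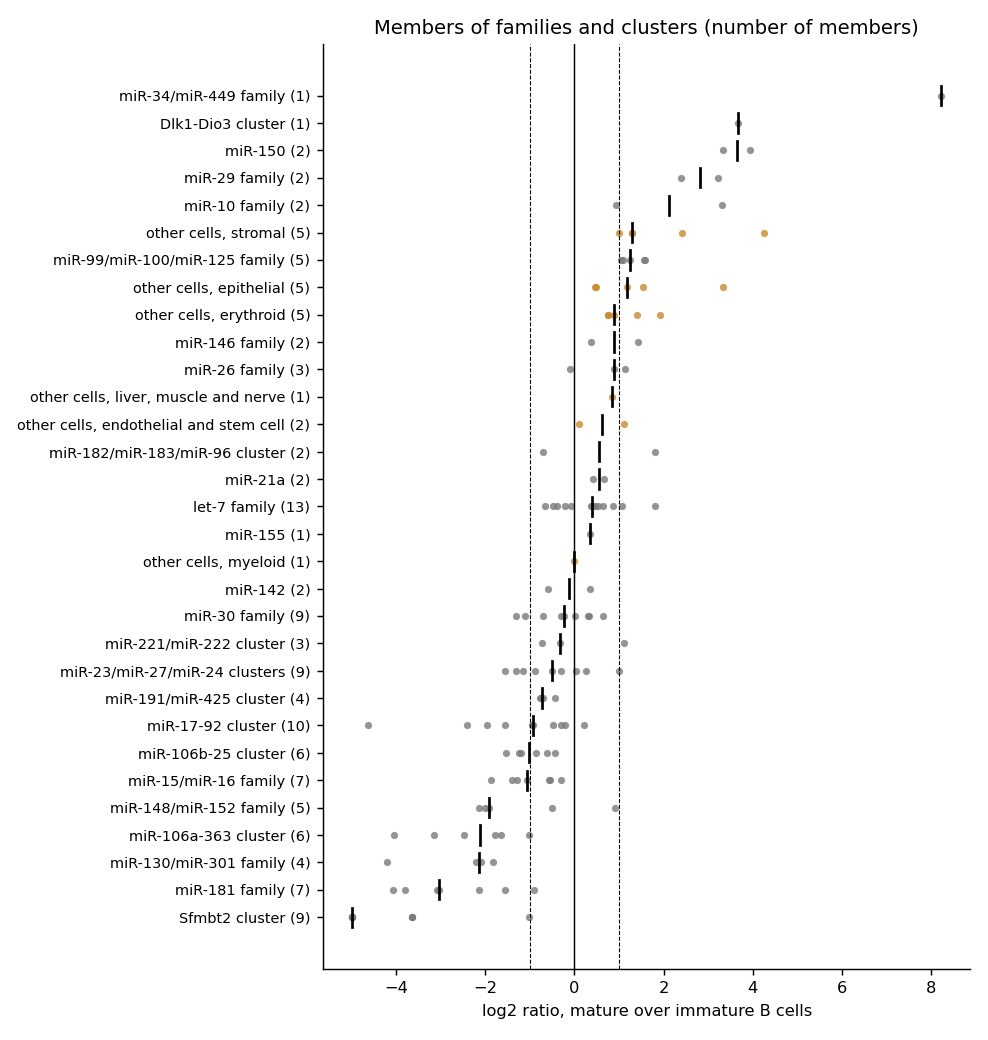
Points give the log2 ratio of mature over immature B cells for each member of a family or cluster, ordered by the median (black bar), with the number of members in brackets and lists of other cell types in orange. The dashed lines mark 2-fold differences. The Sfmbt2 cluster, the miR-181 family and the miR-130/miR-301 family have the lowest medians of the lists drawn here with 3 or more members, and the stromal list has the highest. The X-linked cluster, listed after the values were seen, is not drawn. The medians of miR-142, the miR-30 family and the myeloid list change sign without miR-150-5p in the total.

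Some of the most abundant families hardly differed. The let-7 family, which opposes the fetal RNA-binding protein Lin28b, had 2 of 13 members higher (1 to 3 over the other scalings), none lower and a median log2 ratio of 0.40. The higher members were let-7i-3p and let-7b-3p, whose seeds differ from that of the 5p strands. The 9 strands of seed GAGGUAG all lay within 2-fold, with a median log2 ratio of -0.07. The sign of that median turned without miR-150-5p in the total. The first member of the family, let-7f-5p, was at 30792 CPM in pro-B, 30464 in pre-B, 27259 in immature and 35334 in mature cells. The summed family was at 68248 CPM in immature and 74208 in mature cells, an order that turned with TMM and DESeq2's factors. miR-98-5p was at the low end with a log2 ratio of -0.67, and let-7b-3p at the high end with 1.80. miR-26a-5p, which targets Ezh2, was at 87224 CPM in pro-B, 98497 in pre-B, 97039 in immature and 90884 in mature cells, and the sign of its log2 ratio of -0.09 turned when miR-150-5p was left out of the total.

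Immune regulators of later B cell responses also lay within 2-fold. miR-155-5p, needed for germinal centres, was at 125 and 160.3 CPM, and miR-21a-5p, which is raised in lymphomas, at 6033 and 8079. miR-155-3p, under the tag minimum, went the other way from its 5p strand, with 44 tags in immature and 3 in mature cells. miR-142a-5p was at 28986 CPM in pro-B, 68216 in pre-B, 106667 in immature and 136933 in mature cells, and its 3p strand had a log2 ratio of -0.59. All 4 members of the miR-191/miR-425 cluster were within 2-fold, with log2 ratios from -0.77 to -0.43, and 2 of them passed it with DESeq2's factors. The miR-30 family, with 2 of 9 members lower (1 to 2), had a median of -0.22, which turned positive with the total without miR-150-5p. Its members ran from miR-30e-5p to miR-30d-5p, which was at 17739 and 27865 CPM. Of the miR-221/miR-222 cluster of progenitors, miR-222-3p and miR-221-3p had log2 ratios of -0.72 and -0.33 and miR-221-5p one of 1.12. In the sensory-organ cluster miR-182/miR-183/miR-96, miR-182-5p was 3.48-fold higher and miR-183-5p had a log2 ratio of -0.70. No strand of the miR-132/miR-212 cluster reached the tag minimum.

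Members with a RefSeq entry that share a seed were summed by seed. The 9 seeds with 3 or more distinct members differed in how uniform they were. The 4 strands of seed ACAUUCA (miR-181) summed to 161989 CPM in immature and 52235 in mature cells, a log2 ratio of -1.63. The 6 of seed AAAGUGC (miR-17) summed to 4756 and 1405 CPM, with 5 of the 6 lower. The 5 of seed AUUGCAC (miR-25/miR-92) gave 55306 and 55038, a sum whose slight fall turned to a rise without miR-150-5p in the total and in which miR-25-3p and miR-363-3p were lower and miR-92a-3p made up the most. For seed CAGUGCA (miR-148/miR-152) the sum went from 3745 to 1209 CPM.

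Seeds with higher members were also summed. The 3 strands of seed ACCCGUA (miR-99/miR-100), each 2-fold or more higher, went from 1079.5 to 2292 CPM, and the pair of seed AGCACCA (miR-29) from 2772 to 14611. Among the 26 seeds with 2 or more members in RefSeq, CCCUGAG alone had members past 2-fold in both directions: miR-125a-5p and miR-125b-5p were 2.99-fold and 2.94-fold higher, miR-351-5p was 3.51-fold lower at 1802 and 514 CPM, and the sum stood at 2621 and 2929 CPM, an order that turned with DESeq2's factors. In pro-B and pre-B cells the same 3 summed to 14651 and 6013. miR-215-5p shares its seed with miR-192-5p, which was at 1271 and 1789 CPM, so the pair went from 1271 to 2466 CPM, a log2 ratio of 0.96.

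Both strands of a hairpin mostly moved together. Arms were paired by name, which left out hairpins such as miR-181a-1 that are numbered on 1 arm only. Of the 61 hairpins so paired with both arms among the members, 49 had ratios of 1 sign. In 10 both arms were higher and in 10 both lower by 2-fold or more, while none had arms past 2-fold in opposite directions. Across the 61 hairpins, which share both libraries and their depth and are not independent replicates, Pearson's r of the 5p and 3p log2 ratios was 0.711 and Spearman's rho 0.727. The median absolute difference between arms was 0.65 on the log2 scale. The widest gaps were those of miR-18a, at -4.62 for the 5p and -0.30 for the 3p arm, miR-18b, at -4.05 or less and -1.01, and miR-181c, at -0.90 and -3.79. They were followed by miR-331, at 2.15 and -0.39, and miR-450b, at -2.14 and 0.27, whose arms had opposite signs, lost for miR-450b with DESeq2's factors. In miR-17 and miR-20a too, the 5p arm was far lower and the 3p arm nearly level, with 3p log2 ratios of -0.20, a sign that turned without miR-150-5p in the total, and -0.47.

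**Figure D5:**
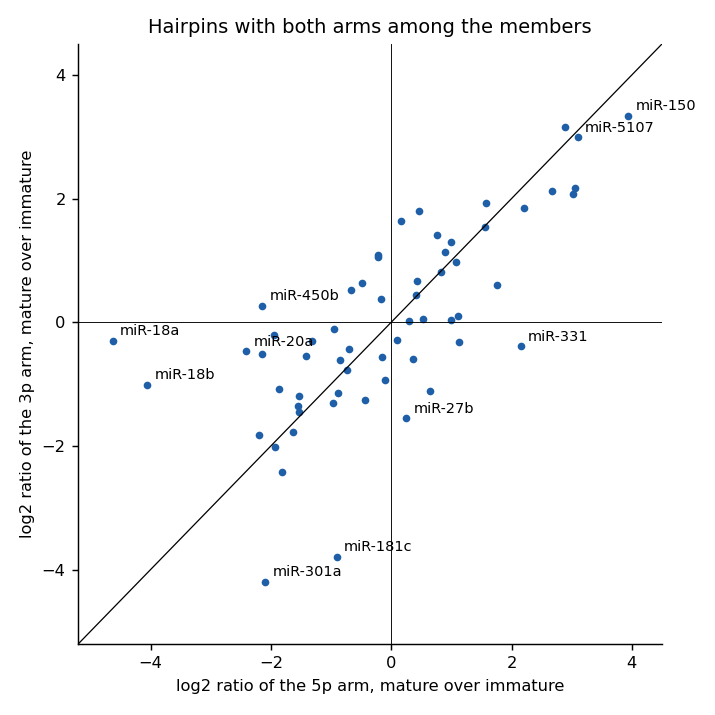
Each point is 1 of 61 hairpins, with the log2 ratio of mature over immature B cells of its 5p arm (x axis) and its 3p arm (y axis). The diagonal marks equal ratios. Most points lie in the quadrants of 1 sign, and miR-18a, miR-18b, miR-181c, miR-331 and miR-450b lie farthest from the diagonal.

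Base composition and length did not separate the groups. The median GC content was 47.6% in the 56 higher members with a RefSeq entry, 47.6% in the 51 lower and 47.8% in the 112 others, and the median length was 22 bases in each. A 5′ U, which Argonaute proteins favour, was present in 28 of the higher (50%), 20 of the lower (39.2%) and 52 of the other members (46.4%). Of the 38 members encoded on the X chromosome alone, 8 were higher and 15 lower, with a median log2 ratio of -0.65. Of the 15 lower, 5 lay in the miR-106a-363 cluster and 7 in the cluster of miR-322. Of the 8 higher, 5 lay in the X-linked cluster known from testis. Members of 1 cluster are not independent. Of the 181 others with a RefSeq entry, 48 were higher and 36 lower, and the median was 0.05. That median turned negative with TMM factors, DESeq2's factors and the authors' TPM. The 181 include let-7f-5p, miR-19b-3p and miR-92a-3p, which have a position on the X chromosome and another elsewhere.

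The members at the edge of the tag minimum show what the depth allowed. Just inside it were miR-467c-5p with 40 tags in immature and 10 in mature cells, miR-5107-3p with 10 and 40 and miR-1306-3p with 38 and 13. Just outside it were miR-96-5p with 36 and 13, miR-15a-3p with 31 and 18 and miR-29c-3p. At this depth the 95% interval of the log2 ratio of miR-467c-5p ran from -2.17 to 0.02. Of the 411 mouse miRNAs below the minimum, 62 had no tag in either library.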

How the data were processed

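The authors deposited tag counts and TPM for each miRNA, and FPKM and estimated (expected) counts for each gene of the rRNA-depleted libraries. From the deposited tag counts, the mouse miRNA rows were scaled to CPM of their total in each library, and the ratios carry exact binomial (Clopper-Pearson) intervals; reads copied by PCR are not independent molecules. The deposited TPM were used as 1 alternative scaling, the deposited FPKM for marker levels, and the deposited estimated counts for the depth of those libraries. For small RNA the study's methods name miRBase 22, GenBank 209.0, Rfam 11.0 and fragments of 18 to 30 nt, and for the other libraries Bowtie2 2.2.8, HISAT2 2.1.0 and StringTie 1.3.4. The submitters' processing notes name Bowtie 0.12.2 and mouse build mm9. Rows of identical sequence were counted in each. Analysis ran in Python 3.11.15, scipy 1.17.1, matplotlib 3.10.9, numpy 2.4.6 and pandas 2.3.3. Scaling factors alone came from DESeq2 1.42.0 and edgeR 4.0.16, run in R 4.3.3. The code was tested on simulated data. miRNAs could be named if they were markers of the comparison, among the 10 most abundant of either library, among the 10 largest ratios in a direction at 500 or more tags or the 5 largest at any, the leading members of a list or any member of a list of 6 or fewer, or at the edge of the tag minimum, and others were named for a shared seed, cluster or hairpin or, as miR-342-3p and miR-378a-3p, after their values were seen. These rules, the members and the lists were chosen with earlier results of these data known. The pattern of the erythroid list was corrected after values were seen, so that it includes miR-451a, which it was written to hold. Lists for the X-linked cluster, miR-192/miR-215, miR-375 and miR-101 were added after values were seen. Some planned marker genes are not reported here and were left out of the lists and sums.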

Additional observations from a re-analysis of the deposited data

Results flagged for a closer look

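Rows named after miRNAs of other species held 12.6% of the listed tags in immature and 13.5% in mature cells and were left out of the comparison. Rows of candidate new miRNAs held 0.0232% and 0.0529% of the listed tags in the same order and were not analysed.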

How the results depend on the processing

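No paired analysis was possible because each stage has 1 library of pooled cells. Of the 260 members 135 were past 2-fold. With 10 or more tags this was 245 of 411 miRNAs, and with 200 or more 81 of 172. With no filter and 0.5 added to each count it was 397 of 609, a setting that changed the filter and the counts at once. Under the other alternatives it stayed within 1.5 times the main count, from 107 with intervals wholly past 2-fold to the 141 reached without miR-150-5p in the total. The share of these that was higher moved from 51.9% to 41.0% with DESeq2's factors and 61.7% without miR-150-5p in the total. The median log2 ratio moved from 0.05 to -0.10 (TMM), -0.24 (DESeq2), 0.32 (without miR-150-5p), 0.16 (10 or more tags), -0.0877 (no filter) and -0.21 (without the other-cell and X-linked lists). The last, and merging identical sequences (131 of 255 past 2-fold), were chosen after seeing the data. Of 588 log2 ratios of 98 named members under alternatives, 424 stayed within their counting interval, 164 left it, and none past 2-fold changed sign. Factors that move every ratio by 1 amount cause the shifts under a change of scaling, and which of them is right was not tested.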

Other observations

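The deposited table also lists 822 rows named after miRNAs of other species, of which 135 reached the same tag minimum. In mature cells 40 of these were 2-fold or more higher than in immature cells and 13 lower, with a median log2 ratio of 0.18. The row with the most tags, named for miR-92, held 91388 tags in immature and 45017 in mature cells. The next, named for miR-140, a miRNA known from cartilage, held 5146 tags in pro-B, 25665 in pre-B, 46810 in immature and 11439 in mature cells, a log2 ratio of -1.04 between the last 2. Rows named for miR-23 and miR-181 had log2 ratios of -2.60 and -2.16, and rows named for miR-101 and miR-378 had 1.71 and 1.53. Whether such rows count sequence variants of the mouse members was not tested.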
